A study of Mus musculus with 36 samples.

Results

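The Nr4a orphan nuclear receptors are 3 genes of the mouse, Nr4a1, Nr4a2 and Nr4a3, and their mRNA was followed in the suprachiasmatic nucleus (SCN), the hypothalamic clock, after a light pulse, an inhibitor of the kinase MEK, or both. The members were taken by symbol: every probe set annotated with 1 of these symbols alone was looked up, and the brightest over 36 arrays was to stand for its gene. Each gene had exactly 1 such probe set, so the description rests on 3 of 30176 genes with a symbol of their own, and 3 of 65956 probe sets tested. C57BL/6J mice aged 8 to 14 weeks were kept for 2 days in darkness and received DMSO or 10 mM U0126 through a cannula in the lateral ventricle. Infusion came 30 min before 10 min of light at 100 lux (Light) or handling with no light (Sham), and SCN tissue was taken 60 min after the pulse, by the sample labels. The 4 treatments DMSO-Sham, DMSO-Light, U0126-Sham and U0126-Light were each run at circadian times CT4, CT15 and CT22, which makes 12 groups of 3 arrays, each array holding RNA pooled from 2 mice. All groups, the controls included, carried the cannula and the infusion, and the replicates are separate pools.

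The Nr4a receptors are transcription factors for which no classical hormone is known, so that their activity follows largely from how much of them a cell makes. All are immediate early genes, switched on by calcium, cAMP and growth factor signals through CREB with its CRTC coactivators, and through SRF and MEF2 factors at some of them. Nr4a1 (Nur77) is the best known activity-induced member, Nr4a2 (Nurr1) is required by midbrain dopamine neurons, and Nr4a3 (Nor1) is the one that does not pair with retinoid X receptors. In the SCN, light reaches the clock cells as glutamate and PACAP from the retina, which activate ERK and CREB in the subjective night.

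The stretches of 250 bases before the RefSeq promoter start of each gene are shown because the CRE half-site, which CREB can bind, recurs in all of them. The promoter start is the base that follows the window. For Nr4a1 and Nr4a3 it lies inside the annotated gene and is not the first base of it. Capitals mark the half-site (TGACG, read as CGTCA on the other strand), and the build is GRCm38.p6, 5′ to 3′ on the strand of the gene. The Nr4a1 window is chr15:101266596-101266845 on the plus strand and lies within the annotated span of the gene (Gene ID 15370, chr15:101253902-101274795). The Nr4a2 window is chr2:57124004-57124253 on the minus strand, directly before the gene (Gene ID 18227, chr2:57106830-57124003). The Nr4a3 window is chr4:48045055-48045304 on the plus strand, across the first annotated bases of the gene (Gene ID 18124, chr4:48045078-48086447).
Nr4a1: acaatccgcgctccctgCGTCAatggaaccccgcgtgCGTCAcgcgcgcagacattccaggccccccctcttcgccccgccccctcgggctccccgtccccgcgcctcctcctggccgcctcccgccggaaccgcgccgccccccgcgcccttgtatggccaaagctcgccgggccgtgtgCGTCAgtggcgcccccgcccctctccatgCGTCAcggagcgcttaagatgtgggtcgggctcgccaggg
Nr4a2: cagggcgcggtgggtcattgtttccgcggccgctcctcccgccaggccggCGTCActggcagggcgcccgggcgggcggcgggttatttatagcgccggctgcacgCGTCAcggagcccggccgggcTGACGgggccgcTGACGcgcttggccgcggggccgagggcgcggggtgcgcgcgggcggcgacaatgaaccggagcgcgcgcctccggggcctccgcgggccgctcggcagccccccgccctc
Nr4a3: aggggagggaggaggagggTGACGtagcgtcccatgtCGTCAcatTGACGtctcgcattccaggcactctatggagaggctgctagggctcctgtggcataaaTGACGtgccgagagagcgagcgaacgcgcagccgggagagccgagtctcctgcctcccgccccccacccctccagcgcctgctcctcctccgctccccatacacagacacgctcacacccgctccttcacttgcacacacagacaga
Each window holds 4 half-sites. In Nr4a1 the nearest ends 36 bases before the promoter start, in Nr4a2 107 bases and in Nr4a3 143 bases. Searched on both strands in the same length before 32851 RefSeq promoters, at least 1 half-site was found in 17.8% and at least 4 in 45 promoters, 0.137%. The windows are rich in G and C (74.4%, 80.0% and 63.6%, against a median of 52.4%), and of the 6582 promoters at least as rich as that of Nr4a3, 0.380% held 4 or more. The full CRE (TGACGTCA, which would count as 2 overlapping half-sites), the NR4A element itself (NBRE, AAAGGTCA), the E-box of the clock factors (CACGTG) and the CArG box of SRF were not found in these windows. Over all promoters they were found in 1.55%, 1.34%, 6.02% and 1.47%. A match is a description of the letters and not of binding.

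The arrays were alike in level, with medians between 4.51 and 4.66 on the log2 intensity scale and correlations between pairs of arrays from 0.974 to 0.996. The SCN markers Avp, Vip, Six6, Lhx1 and Rgs16 had mean log2 intensities of 10.36, 9.40, 7.52, 7.19 and 9.65, above the median of 4.57 over all probe sets. The inhibitor was checked on 4 genes that ERK switches on as its own brakes, the phosphatases Dusp4 and Dusp6 and the Sprouty genes Spry2 and Spry4. Averaged over the times, 4 of 4 fell under U0126 both without light (median log2 change -0.56) and with light (-0.70). By time, 0 of 4 passed at CT4, 2 at CT15 and 2 at CT22 without light, and 3, 3 and 1 with light, with 4 of 4 lower in each. The pools differed in sex, which was not among the sample labels used. The female transcript Xist was between 9.66 and 10.22 in DMSO-Sham at CT4 and between 3.29 and 3.39 in DMSO-Light at CT4, and was mixed within the other groups except U0126-Sham and U0126-Light at CT4, where it was high throughout. By the paper, every group held as many females as males. The values of DMSO-Light at CT4 differ from this: with Xist low, the mean of the Y-linked genes was 7.07, 7.08 and 6.99, with no sign of female mice. In some pools Xist and the mean of the Y-linked genes were both high. In DMSO-Sham at CT4, replicate 1 had 9.66 and 5.70, and replicate 3 had 10.22 and 3.54. Xist alone hardly separates such pools. Because the pools differed in sex, fits with Xist as a covariate are given beside the results whose call they changed. Those fits do not code pools with both signals.

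**Figure D1:**
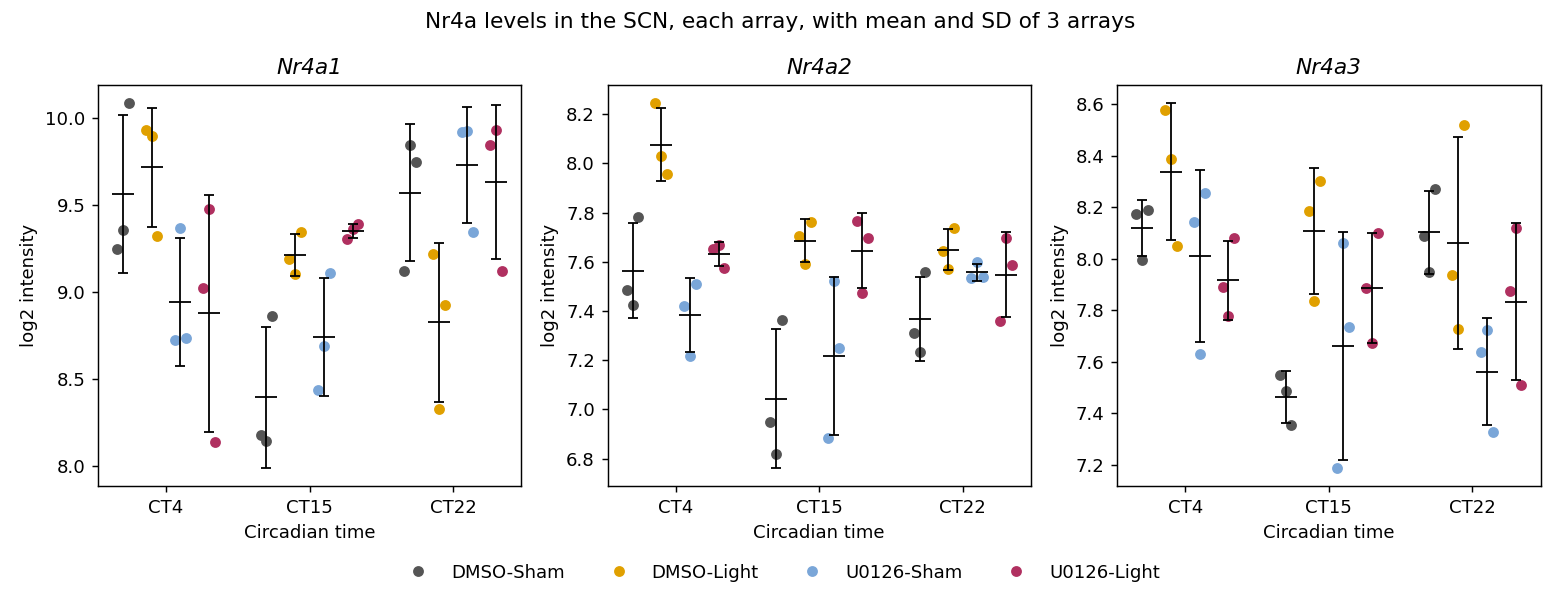
Log2 intensity (vertical axis) of Nr4a1, Nr4a2 and Nr4a3 at CT4, CT15 and CT22 (horizontal axis), with 1 point per array coloured by treatment, and a bar for the mean and SD of 3 arrays. The DMSO-Sham group at CT15 had the lowest mean of the 12 groups for all 3 genes (8.40, 7.04 and 7.46), and DMSO-Light at CT4 the highest for Nr4a2 (8.08) and Nr4a3 (8.34).

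Across the 12 groups, the mean log2 intensity of Nr4a1 ran from 8.40 (DMSO-Sham, CT15) to 9.73 (U0126-Sham, CT22), that of Nr4a2 from 7.04 to 8.08 and that of Nr4a3 from 7.46 to 8.34. In all of them DMSO-Sham at CT15 was the lowest group. For most neighbours in these orders the levels did not differ beyond their spread: the gap was under 1 standard error of a difference for 10 of 11 neighbouring pairs in Nr4a1, 7 of 11 in Nr4a2 and 10 of 11 in Nr4a3. The widest gap, 0.39, lay between the 2 highest Nr4a2 groups, DMSO-Light at CT4 and at CT15. The spread between arrays of a group, pooled in the fit, was 0.37 for Nr4a1, 0.17 for Nr4a2 and 0.25 for Nr4a3 (SD, log2), so the same change was resolved best in Nr4a2.

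The first question was whether light raised the receptors in mice without the inhibitor. Nr4a2 rose: at CT15, early subjective night, it was 1.56-fold higher after light, and averaged over the times 1.39-fold higher. Nr4a1 and Nr4a3 had log2 differences of similar size at CT15 but did not pass the test. To pass, a fold change had to exceed 1.3 with an adjusted p no higher than 0.1 (limma, 12 group means, Benjamini-Hochberg over all probe sets). In bulk tissue, fewer cells that make a transcript and less of it per cell cannot be told apart.

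At CT15, Nr4a2 read 6.95, 6.82 and 7.36 in the DMSO-Sham arrays and 7.71, 7.59 and 7.76 in the DMSO-Light arrays. Every light array lay above every sham array. The log2 change was 0.64 (SE 0.14, 95% confidence interval 0.36 to 0.92, adjusted p = 0.065 by limma), and Nr4a2 was the 1 of 3 members that passed, where 0.105% of all probe sets did. Nr4a1, the member with the widest spread, read 8.18, 8.14 and 8.86 in sham and 9.19, 9.10 and 9.34 in light (0.82, SE 0.30, adjusted p = 0.61). Nr4a3 read 7.55, 7.49 and 7.35 in sham and 8.19, 7.84 and 8.30 in light (0.65, SE 0.21, adjusted p = 0.47). Both also had every light array above every sham array, as 7.02% of all probe sets had at this time, and neither passed. The exact permutation test of 3 against 3 arrays gave p = 0.1 for each of these, the smallest it allows. The Nr4a2 call at CT15 was lost without any 1 of 5 of the 6 arrays (log2 change 0.53 to 0.69, adjusted p 0.12 to 0.52), and held without DMSO-Sham replicate 3 (0.80, adjusted p = 0.023). It was also lost with Xist as a covariate (0.60, adjusted p = 0.12).

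Cell type markers moved between the same arrays at CT15. The summed log2 level of 9 SCN neuron markers was 72.3 to 72.8 in DMSO-Sham and 75.1 to 77.0 in DMSO-Light, with 9 of 9 higher after light and none past the test. That of 5 meningeal fibroblast markers was 29.4 to 30.2 in DMSO-Sham and 27.2 to 29.1 in DMSO-Light, with 5 of 5 lower and Slc22a8, a transporter of the meninges and barrier tissues, past the test (-0.78, adjusted p = 0.022). The 3 ependymal and choroid plexus markers summed to 16.0 to 16.2 in DMSO-Sham and 14.8 to 15.8 in DMSO-Light, with 3 of 3 lower and none past the test. The dimmest of the meningeal markers was Lum, at a mean log2 intensity of 3.43, below the median of all probe sets. Among the 9 SCN neuron markers, the developmental factors Six3 and Six6 differed by 0.15 and 0.30, and Gad2, the GABA-making enzyme, by 0.03. These are 3 of the 9, whose summed level went from a mean of 72.5 in DMSO-Sham to 75.9 in DMSO-Light. The part of the markers in the light response was not tested.

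At CT4, in the subjective day, Nr4a2 read 7.48, 7.43 and 7.78 in DMSO-Sham and 8.24, 8.03 and 7.96 in DMSO-Light. Again every light array was above every sham array, as for 4.19% of all probe sets, with a log2 difference of 0.51 (SE 0.14, adjusted p = 0.50), and no member passed, nor did any other probe set (0%). With Xist as a covariate the value was 0.62 (adjusted p = 0.36), and within these groups the sex of the pools and light cannot be told apart. Nr4a1 at CT4 overlapped between sham (9.25, 9.35 and 10.08) and light (9.93, 9.90 and 9.32), with a log2 difference of 0.15 (SE 0.30), and so did Nr4a3 (8.17, 8.00 and 8.19 against 8.58, 8.39 and 8.05, a log2 difference of 0.22, SE 0.21).

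At CT22, late subjective night, the members went apart in sign. Nr4a2 read 7.31, 7.23 and 7.56 in sham and 7.64, 7.57 and 7.74 in light, again with no overlap (log2 difference 0.28, SE 0.14, adjusted p = 0.64), and 6.73% of all probe sets had their light arrays above their sham arrays there. Nr4a1 read 9.12, 9.84 and 9.75 in sham and 9.22, 8.33 and 8.93 in light, a log2 difference of -0.74 (SE 0.30, adjusted p = 0.47). Nr4a3 read 8.09, 7.95 and 8.27 in sham and 7.94, 7.73 and 8.52 in light (-0.04, SE 0.21). The arrays of Nr4a1 and of Nr4a3 overlapped, and no member passed at CT22, where 0.66% of probe sets did. Nr4a2 was the 1 member whose light arrays lay above the sham arrays at all 3 times, which 41 of 65956 probe sets (0.0622%) had in common. Between the same arrays at CT22 the 9 SCN neuron markers summed to 74.8 to 76.8 in sham and 73.7 to 73.9 in light, with 6 of 9 lower and the SCN factor Lhx1 past the test (-0.58, adjusted p = 0.038 by limma). The 3 astrocyte markers summed to 25.2 to 25.7 and 23.8 to 24.5, with 3 of 3 lower and none past the test. Their part in these differences was not tested.

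Averaged over the 3 times, 9 light against 9 sham arrays in DMSO, Nr4a2 rose by 0.48 (SE 0.08, 95% confidence interval 0.32 to 0.64, adjusted p = 0.014 by limma), while 0.0758% of all probe sets passed. Nr4a3 was 0.27 higher (SE 0.12, adjusted p = 0.45) and Nr4a1 0.07 (SE 0.17, adjusted p = 0.93), and neither passed. The Nr4a2 call kept its side of the thresholds in every alternative run and without any 1 array. The average includes CT4, where light and the sex of the pools cannot be told apart, and leaving out 1 array does not change that. Whether the response differed between times was tested directly, and no member passed for CT15 minus CT4 (0% of probe sets), CT22 minus CT4 (0%) or CT22 minus CT15 (0.0804%). The widest of these differences was that of Nr4a1 between CT22 and CT15, -1.56 (SE 0.43, 95% confidence interval -2.43 to -0.68, unadjusted p = 0.00108, adjusted p = 0.27 by limma). For Nr4a2 the difference between CT22 and CT15 was -0.36 (95% confidence interval -0.76 to 0.04).

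**Figure D2:**
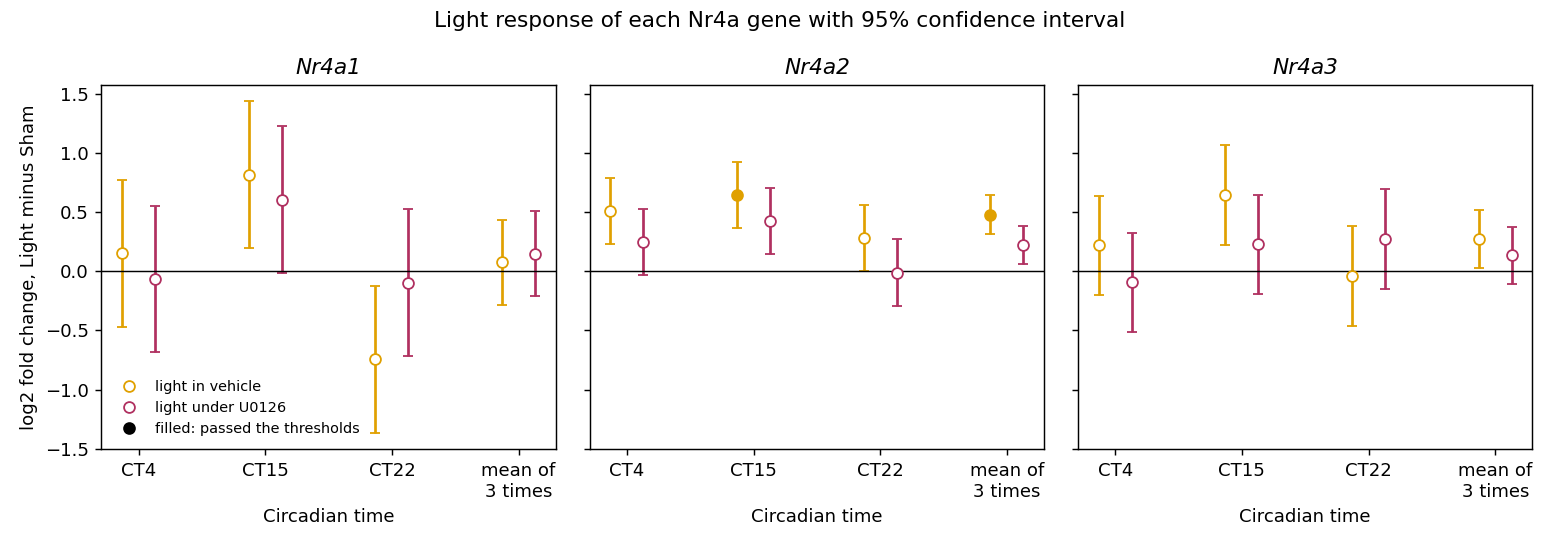
Log2 fold change from Sham to Light (vertical axis) of each Nr4a gene at CT4, CT15, CT22 and averaged over them (horizontal axis), in DMSO vehicle and under U0126, with 95% confidence intervals and filled points where the thresholds were passed. Only the Nr4a2 points in vehicle at CT15 (0.64) and averaged over the times (0.48) are filled, and all intervals under U0126 overlap those in vehicle.

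The second question was what remained of the light response when MEK was blocked. No member passed under U0126 at CT4, CT15 or CT22, and no other probe set did either (0%, 0% and 0%). Averaged over the times 0.00152% of probe sets passed, none of them a member. Nr4a2 averaged 0.22 higher after light under U0126 (SE 0.08, 95% confidence interval 0.06 to 0.38, adjusted p = 0.83), Nr4a1 0.15 (SE 0.17) and Nr4a3 0.13 (SE 0.12).

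At CT15 under U0126, Nr4a1 read 8.44, 8.69 and 9.11 in sham and 9.30, 9.36 and 9.39 in light. The light arrays were all above the sham arrays, as for 4.71% of all probe sets, and close together (SD 0.04), with a log2 difference of 0.61 (SE 0.30, adjusted p = 1.00). Nr4a2 read 6.88, 7.52 and 7.25 in sham and 7.76, 7.47 and 7.70 in light, with 1 overlapping pair (0.43, SE 0.14, adjusted p = 0.94). Nr4a3 read 7.19, 8.06 and 7.73 against 7.89, 7.67 and 8.10 and overlapped (0.23, SE 0.21). At CT4, Nr4a2 read 7.42, 7.22 and 7.51 in sham and 7.65, 7.67 and 7.57 in light, with no overlap, as for 4.54% of all probe sets in this direction, and a log2 difference of 0.25 (SE 0.14). In the other comparisons under U0126 the arrays overlapped, with log2 differences from -0.10 to 0.27.

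Whether the response differed with the drug was tested as the interaction, the light response under U0126 minus that in vehicle. No member passed at CT4, CT15, CT22 or averaged over the times, and no probe set did (0% each). For Nr4a2 the interaction was negative at CT4, CT15 and CT22 (-0.26, -0.22 and -0.29) and averaged -0.26 (SE 0.11, 95% confidence interval -0.49 to -0.03, unadjusted p = 0.029, adjusted p = 1.00 by limma). For Nr4a3 it averaged -0.14 (95% confidence interval -0.48 to 0.20) and for Nr4a1 0.07 (-0.43 to 0.58). The averaged interval for Nr4a2 runs from a small loss to the whole of its averaged response in vehicle (0.48). The intervals at CT4 (-0.66 to 0.13), CT15 (-0.61 to 0.18) and CT22 (-0.69 to 0.10) also hold no loss and a gain. The Nr4a2 response passed in vehicle and not under U0126, but by the adjusted test it is not shown to differ between them.

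The third question was what U0126 did to the levels. No member passed with or without light at any time or averaged over them. In sham mice the share of all probe sets that passed was 0% at CT4, 3.49% at CT15, 1.12% at CT22 and 0.0637% averaged. In light-pulsed mice it was 0.0136%, 0.233%, 0.0136% and 0.0879%. In the averages, Nr4a2 and Nr4a3 were lower under U0126 with light, by log2 differences of -0.20 (SE 0.08, adjusted p = 0.67) and -0.29 (SE 0.12, adjusted p = 0.68), and Nr4a1 differed by 0.04 (SE 0.17). Without light the averages were -0.04, 0.06 and -0.15 for Nr4a1, Nr4a2 and Nr4a3. The sham values share their DMSO-Sham arrays with the light responses in vehicle.

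At CT4 with light, all members had negative log2 differences under U0126: Nr4a1 -0.84 (SE 0.30), Nr4a2 -0.45 (SE 0.14) and Nr4a3 -0.42 (SE 0.21). The Nr4a2 arrays did not overlap, at 7.65, 7.67 and 7.57 under U0126 against 8.24, 8.03 and 7.96 in vehicle, and 5.5% of all probe sets had every U0126 array below every vehicle array. Of 19 other immediate early genes measured, 19 were also lower there and none passed, with a median log2 difference of -0.42 against -0.00191 over all probe sets. Xist was high in all U0126-Light arrays and low in all DMSO-Light arrays at CT4, so drug and sex cannot be told apart in this comparison. Without light at CT4, where Xist was high under both, 19 of 19 were also lower under U0126 (median -0.37, none past the test), and the members differed by -0.62 (Nr4a1), -0.18 (Nr4a2) and -0.11 (Nr4a3). For light in vehicle at CT4, 12 of 19 were above 0, with a median log2 difference of 0.03 and none past the test. Light and Xist changed together there, so that comparison does not separate them either. The part of sex in these differences was not tested. At CT22 with light the sign of Nr4a1 was the opposite, 0.81 (SE 0.30, adjusted p = 0.57), with 9.84, 9.93 and 9.12 under U0126 against 9.22, 8.33 and 8.93. Those arrays overlapped in 1 pair.

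At CT22 without light, Nr4a3 read 7.64, 7.72 and 7.33 under U0126 and 8.09, 7.95 and 8.27 in DMSO. All U0126 arrays were below all DMSO arrays, as for 4.89% of all probe sets, with a log2 difference of -0.54 (SE 0.21, adjusted p = 0.35). With Xist as a covariate it was -0.65 and passed (adjusted p = 0.077). Nr4a1 (0.16, SE 0.30) and Nr4a2 (0.19, SE 0.14) overlapped in the same arrays. On a list of reported NR4A targets and partners in the midbrain dopamine programme, 7 of 15 measured genes were above 0 in this comparison. Their median log2 difference was -0.02 against 0.03 over all probe sets. Of the 15, 1 fell, the NF-κB inhibitor Nfkbia (-1.01, adjusted p = 0.026 by limma), where 1.12% of all probe sets passed. The 3 astrocyte markers summed to 25.2 to 25.7 in DMSO-Sham and 23.3 to 23.9 in U0126-Sham, with 3 of 3 lower and Gfap, the astrocyte filament protein, past the test (-1.47, adjusted p = 0.0047). The 4 endothelial markers summed to 24.3 to 25.4 and 23.5 to 24.0, with 4 of 4 lower and none past the test. Their part in the Nr4a3 difference was not tested.

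The fourth question was how the receptors varied with time of day in vehicle mice without light. All 3 fell from CT4 to CT15 and 2 rose again to CT22, with Nr4a1 at CT22 2.26-fold its level at CT15 (95% confidence interval 1.47 to 3.47). These comparisons use the same DMSO-Sham arrays as the light responses in vehicle, and those at CT15 are the low side of both. From CT4 to CT15 the log2 changes were -1.17 for Nr4a1 (SE 0.30, adjusted p = 0.026 by limma), -0.52 for Nr4a2 (SE 0.14, adjusted p = 0.028) and -0.66 for Nr4a3 (SE 0.21, adjusted p = 0.072), 3 of 3 members against 2.21% of all probe sets. In each of them the arrays at CT15 were all below those at CT4, as in 13.3% of all probe sets. From CT15 to CT22, Nr4a1 rose by 1.17 (SE 0.30, adjusted p = 0.0093) and Nr4a3 by 0.64 (SE 0.21, adjusted p = 0.039), 2 of 3 members against 5.96% of all probe sets. Nr4a2 was 0.32 higher (SE 0.14, adjusted p = 0.13), with overlapping arrays.

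Between CT22 and CT4 no member passed (3.15% of probe sets did), with log2 differences of 0.01 for Nr4a1, -0.20 for Nr4a2 and -0.02 for Nr4a3. Calls from CT4 to CT15 leaned on single arrays: that of Nr4a1 was lost without DMSO-Sham CT4 replicate 3 (-0.91), CT15 replicate 1 (-1.06) or CT15 replicate 2 (-1.04), and that of Nr4a2 without the same arrays (-0.41, -0.47 and -0.41). That of Nr4a3 was lost without any 1 of the 6 (-0.72 to -0.60, adjusted p 0.10 to 0.22) and with Xist as a covariate (-0.46, adjusted p = 0.19). The rise of Nr4a3 to CT22 was lost without DMSO-Sham CT15 replicate 3 (0.59) or CT22 replicate 3 (0.56), and Nr4a2 passed without CT15 replicate 3 (0.48, adjusted p = 0.029). The rise of Nr4a1 to CT22 held without any 1 array.

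Marker levels differed between the same arrays. The 9 SCN neuron markers summed to 74.7 to 76.3 at CT4, 72.3 to 72.8 at CT15 and 74.8 to 76.8 at CT22. Of these, 3 fell from CT4 to CT15, Avp (-1.12), Prok2 (-1.50) and Rgs16 (-1.18). Six3, Six6 and Gad2 differed by 0.01, 0.22 and 0.11 and did not pass. The 3 oligodendrocyte markers summed to 25.0 to 26.6 at CT4 and 26.8 to 28.3 at CT15, with Mobp, a myelin protein, past the test (0.88, adjusted p = 0.015). The 4 microglia markers summed to 23.9 to 24.1 at CT15 and 24.7 to 26.2 at CT22, 4 of 4 higher and 2 past the test, and the 3 astrocyte markers to 23.3 to 24.2 and 25.2 to 25.7. The 5 meningeal fibroblast markers summed to 27.9 to 29.3 at CT4, 29.4 to 30.2 at CT15 and 27.4 to 28.5 at CT22, so the arrays at CT15 were the highest. Their part in the time-of-day differences was not tested.

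In the other treatments the daily pattern was given by fewer calls, and differences between treatments in it were not tested beyond the light responses above. In DMSO-Light, 0 of 3 members passed from CT4 to CT15 (1.75% of probe sets), 1 for CT22 minus CT4 (1.65%) and 0 from CT15 to CT22 (7.16%). The 1 was Nr4a2, lower at CT22 than at CT4 by a log2 difference of -0.43 (SE 0.14, adjusted p = 0.09996), which lay just inside the threshold and was lost without any 1 of 5 of its 6 arrays. Nr4a2 from CT4 to CT15 (-0.39, adjusted p = 0.14) passed with dim probe sets left out (adjusted p = 0.073), with single-symbol probe sets only (0.078), with array weights (-0.42, 0.094) and with Xist as a covariate (-0.47, 0.098). Nr4a1 for CT22 minus CT4 (-0.89, adjusted p = 0.12) passed with dim probe sets left out (adjusted p = 0.073), with single-symbol probe sets only (0.079), with array weights (-0.96, 0.044), and without DMSO-Light CT4 replicate 3 (-1.09, 0.082) or CT22 replicate 1 (-1.09, 0.097). In U0126-Sham, 0 of 3 passed from CT4 to CT15 (4.71%), 0 for CT22 minus CT4 (4.1%) and 1 from CT15 to CT22 (13.3%), which was Nr4a1 (0.98, SE 0.30, adjusted p = 0.018). Nr4a1 for CT22 minus CT4 (0.78, adjusted p = 0.11) passed with dim probe sets left out (adjusted p = 0.074), with single-symbol probe sets only (0.084), with array weights (0.92, 0.087) and without U0126-Sham CT4 replicate 2 (1.00, 0.096). In U0126-Light none passed in any of the comparisons (1.4%, 3.88% and 8.85%), and Nr4a1 for CT22 minus CT4 (0.75, adjusted p = 0.13) passed with dim probe sets left out (adjusted p = 0.096), with array weights (0.80, 0.056) and without U0126-Light CT4 replicate 2 (1.05, 0.059). The sign of Nr4a1 for CT22 minus CT4 was negative in DMSO-Light and positive under U0126 with and without light.

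Pooled over the 4 treatments, 12 arrays a time, Nr4a1 rose from CT15 to CT22 by 0.51 (SE 0.15, adjusted p = 0.0069), 1 of 3 members against 7.3% of probe sets. The treatments were unlike in this: the log2 difference of Nr4a1 was 1.17 in DMSO-Sham and 0.98 in U0126-Sham. It was 0.28 in U0126-Light and -0.38 in DMSO-Light, and neither of these passed. Nr4a2 (-0.27, SE 0.07, adjusted p = 0.0057) and Nr4a3 (-0.32, SE 0.10, adjusted p = 0.029) were lower at CT15 than at CT4 with adjusted p-values within the threshold but folds under 1.3, so that 0 of 3 members passed there (1.79%). For CT22 minus CT4 also 0 of 3 passed (1.96%).

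**Figure D3:**
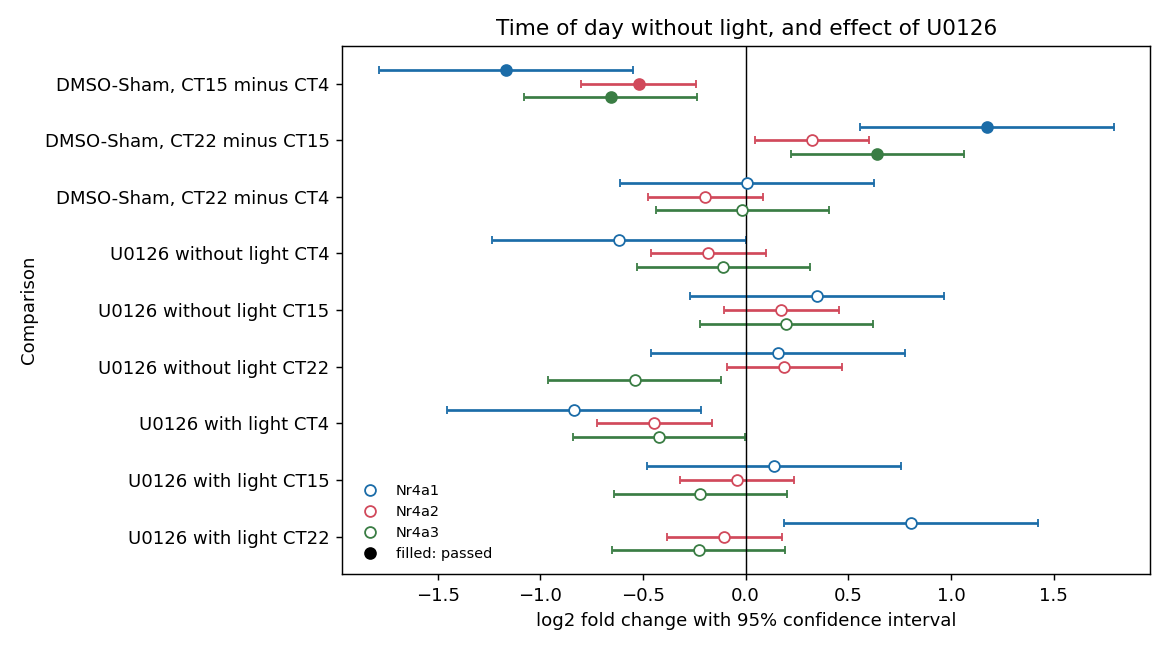
Log2 fold change (horizontal axis) with 95% confidence interval of each Nr4a gene for time of day in DMSO-Sham and for U0126 against DMSO with and without light at each time (vertical axis), with filled points where the thresholds were passed. The 5 filled points are the falls of all 3 genes from CT4 to CT15 (-1.17, -0.52 and -0.66) and the rises of Nr4a1 (1.17) and Nr4a3 (0.64) to CT22, and none of the U0126 points is filled.

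The partners and inputs of the receptors were set beside them in the same fits. The retinoid X receptors Rxra, Rxrb and Rxrg, with which Nr4a1 and Nr4a2 can pair, differed by -0.04, -0.01 and 0.01 with light at CT15, none past the test. From CT4 to CT15, Rxrg fell (-0.53, SE 0.10, adjusted p = 0.0036 by limma) along with the members. Of 16 measured upstream regulators (CREB, CRTC, SIK, SRF, ELK and MEF2 genes), none passed with light at CT15, and the median log2 change was 0.09 against -0.00315 over all probe sets. From CT4 to CT15, 1 of the 16 fell, the CRTC-inhibiting kinase Sik1 (-0.65, SE 0.12, adjusted p = 0.0029), and from CT15 to CT22 Sik1 (0.44) and the serum response factor Srf (0.38) rose. Over all probe sets, 2.21% and 5.96% passed in these comparisons.

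Of the 19 other immediate early genes, 1 rose with light at CT15 in vehicle, the AP-1 subunit Fosl2 (0.72, SE 0.14, adjusted p = 0.024 by limma), with a list median of 0.28. In this comparison 0.105% of all probe sets passed. The clock gene Per1 was 0.37 higher (adjusted p = 0.15) and Fos 0.37 (SE 0.50, adjusted p = 0.93). Of the 4 ERK brakes, Dusp4 (0.74) and Spry4 (0.55) rose with light at CT15. In DMSO-Sham from CT4 to CT15, 4 of the 19 fell, Fosl2 (-0.62), Egr1 (-0.68), Per1 (-0.60) and the small GTPase Gem (-0.71), with a list median of -0.42 against -0.03 over all probe sets. From CT15 to CT22, 9 of the 19 rose and all 19 had positive log2 changes (median 0.48 against 0.02 over all probe sets), among them Fosl2 (0.85), Gem (0.83), the synaptic gene Arc (0.84) and the activity-dependent factor Npas4 (0.61). Nr4a1 and Nr4a3 rose over the same interval. The share of all probe sets that passed was 2.21% from CT4 to CT15 and 5.96% from CT15 to CT22.

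Reported targets of the receptors were outside the calls with light at CT15, and some passed with time of day. The list also holds partners in the midbrain dopamine programme, such as Pitx3 and En1. Of its 15 measured genes, none passed with light at CT15 in vehicle (median 0.04). From CT4 to CT15 in DMSO-Sham, tyrosine hydroxylase Th (-0.56, adjusted p = 0.041) and the vesicular monoamine transporter Slc18a2 (-0.54, adjusted p = 0.018) fell and the retinaldehyde dehydrogenase Aldh1a1 rose (0.65, adjusted p = 0.032). From CT15 to CT22, Slc18a2 (0.51), Nfkbia (0.99) and Gch1 (0.42), which makes the cofactor of tyrosine hydroxylase, rose, and Aldh1a1 fell (-0.95). Among all probe sets, 2.21% passed from CT4 to CT15 and 5.96% from CT15 to CT22. Of the defining genes of midbrain dopamine neurons, Pitx3 and En1 had mean log2 intensities of 4.96 and 4.85. These lay near the median of 4.57 over all probe sets, while Slc6a3 was at 5.64 and Th at 8.08.

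The members were compared with each other over the 36 arrays, 3 pairs in all. Nr4a2 and Nr4a3 went together most closely (Pearson r = 0.66, permutation p = 3e-05, adjusted 9e-05, Spearman rho = 0.57, permutation p = 0.00028). Nr4a1 and Nr4a2 had r = 0.53 (permutation p = 0.00086, adjusted 0.0013, rho = 0.41, p = 0.014), and Nr4a1 and Nr4a3 r = 0.33 (permutation p = 0.052, rho = 0.26, p = 0.13). Without the 2 arrays farthest from the median of the first gene the values were 0.57, 0.49 and 0.33. The 36 arrays fall into 12 groups, so part of this is the shared design. Within groups, as deviations from the group means, r was 0.59 for Nr4a2 with Nr4a3, 0.37 for Nr4a1 with Nr4a2 and 0.18 for Nr4a1 with Nr4a3.

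**Figure D4:**
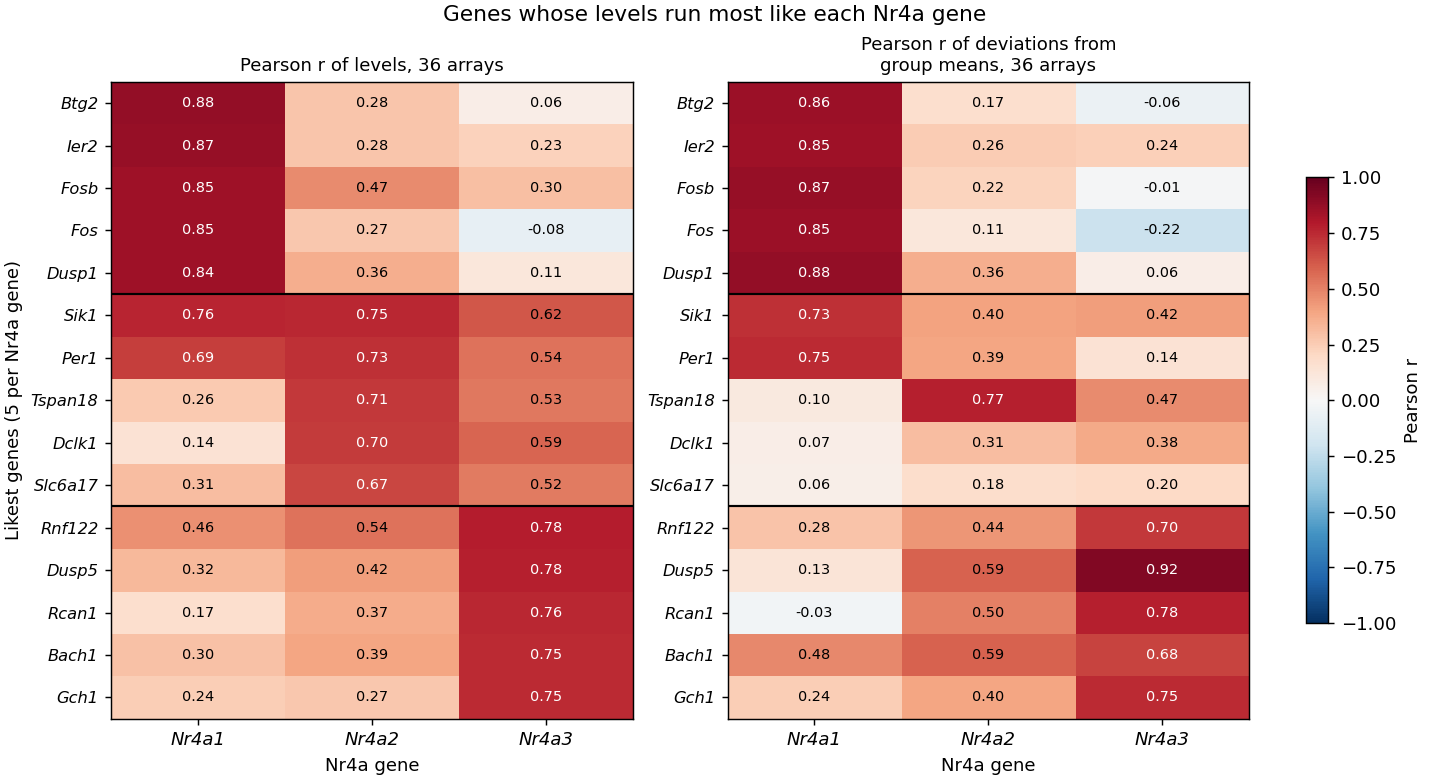
Pearson r over 36 arrays between each Nr4a gene (columns) and the 15 genes chosen as the 5 most like each of them (lines), for the levels (left) and for deviations from the 12 group means (right). The genes most like Nr4a1 (0.84 to 0.88 with it) had r of -0.08 to 0.30 with Nr4a3, and those most like Nr4a3 (0.75 to 0.78) had r of 0.17 to 0.46 with Nr4a1.

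The genes whose levels ran most like each member were the 5 with the highest Pearson r over 36 arrays among 18596 genes at or over the median level, and are given as a description, since arrays share groups and tissue. For Nr4a1 they were the immediate early genes Btg2 (r = 0.88), Ier2 (0.87), Fosb (0.85), Fos (0.85) and Dusp1 (0.84), the last a MAP kinase phosphatase. Their r with Nr4a1 was as high for deviations from group means (0.85 to 0.88). For Nr4a2 they were Sik1 (0.75), the clock gene Per1 (0.73), the tetraspanin Tspan18 (0.71), the doublecortin-like kinase Dclk1 (0.70) and the transporter Slc6a17 (0.67), and within groups only Tspan18 stayed as high (0.77 against 0.18 to 0.40). For Nr4a3 they were the ubiquitin ligase Rnf122 (0.78), the nuclear ERK phosphatase Dusp5 (0.78), the calcineurin regulator Rcan1 (0.76), the haem-sensing repressor Bach1 (0.75) and Gch1 (0.75). Dusp5 followed Nr4a3 more closely within groups (0.92). Sik1 and Per1, among the 5 of Nr4a2, also had r of 0.76 and 0.69 with Nr4a1, and within groups theirs was 0.73 and 0.75 with Nr4a1 against 0.40 and 0.39 with Nr4a2.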

How the data were processed

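SCN RNA of 36 mouse pools was hybridised to GeneChip Mouse Transcriptome Assay arrays. The authors processed the arrays with the oligo package in R and deposited log2 intensities of 72688 probe sets, which were used as given, and the submitters' processing notes also name limma. The labels give circadian times and count the 60 min from the end of the pulse, while the paper gives zeitgeber times and counts from light onset. Here 6732 control probe sets were left out and 65956 tested without a filter. Symbols came from the platform annotation (30638 probe sets with 1 symbol, 2176 with several, 33142 with none). Positions and promoters came from RefSeq (GRCm38.p6), and all 3 members matched. One model of 12 group means over 36 arrays (24 residual degrees of freedom) was fitted with limma 3.58.1 in R 4.3.3 and tested on simulated data. P-values were adjusted by Benjamini-Hochberg within each comparison, with the thresholds of the study (fold above 1.3, adjusted p up to 0.1). Correlations used 100000 permutations (scipy 1.17.1, Python 3.11.15). The number of arrays limits the precision. Members, the gene lists and the rule for likest genes (the 5 highest Pearson r per member) were chosen with earlier results of these data known. From each gene list, up to 3 genes with the smallest p were named where they passed or where the list is described, and others were named after their values were seen. Replicate numbers were checked for pairing: in 2 of 18 pairs of groups at a time all 3 correlations of same-numbered arrays were over 0.1, and in 22 of 54 such comparisons an array correlated best with the one of its own number. Alternatives were other normalizations, filters, variance models, weights, subsets, a replicate block, Xist as a covariate and leaving out each array.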

Additional observations from a re-analysis of the deposited data

How the results depend on the processing

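The rise of Nr4a2 with light averaged over the times passed in every alternative, though it includes CT4, where light and the sex of the pools cannot be told apart. The rise of Nr4a2 at CT15 kept its value but not its call at an adjusted p of at most 0.05 (0.64, adjusted p = 0.065) and in a fit of the 12 arrays of that time (0.64, adjusted p = 0.44), and was lost after quantile normalization (0.62, adjusted p = 0.10) and with Xist as a covariate (0.60). The fall of Nr4a3 from CT4 to CT15 in DMSO-Sham was lost at 0.05 (-0.66, adjusted p = 0.072) and with Xist as a covariate (-0.46), and Nr4a3 under U0126 without light at CT22 passed with it (-0.65). Differences near 0 that turned sign were those of Nr4a2 with light under U0126 at CT22 (0.024 with array weights, 0.026 with Xist), the Nr4a2 light response at CT15 minus CT4 (-0.017 with Xist), Nr4a1 for DMSO-Sham CT22 minus CT4 (-0.065 after quantile normalization, -0.020 after cyclic loess), Nr4a3 for the same interval (0.19 with Xist) and Nr4a1 under U0126 without light averaged over the times (0.030 with array weights). With the replicate number as a replicate block the calls were as without it, for example 0.64 for Nr4a2 with light at CT15 (adjusted p = 0.061), and the arrays mostly share only a number. No member had another probe set, so that alternative could not be run. The cause of these changes was not tested.

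Leaving out 1 array at a time changed calls, among them those that follow. The log2 change ranged from 0.53 to 0.80 for Nr4a2 with light in DMSO at CT15. In DMSO-Sham from CT4 to CT15 it ranged from -1.40 to -0.91 for Nr4a1, from -0.68 to -0.41 for Nr4a2 and from -0.72 to -0.60 for Nr4a3. From CT15 to CT22 it ranged from 0.21 to 0.48 for Nr4a2 and from 0.56 to 0.72 for Nr4a3. Values near 0 that had not passed turned sign without 1 array. For light in DMSO these were Nr4a1 at CT4 (-0.0044 to 0.41), Nr4a3 at CT22 (-0.27 to 0.13) and Nr4a1 averaged (-0.00040 to 0.16). For light under U0126 they were Nr4a1 at CT4 (-0.36 to 0.31) and CT22 (-0.29 to 0.16), Nr4a2 at CT22 (-0.086 to 0.084) and Nr4a3 at CT4 (-0.28 to 0.030) and CT15 (-0.0099 to 0.43). For U0126 without light they were Nr4a3 at CT4 (-0.23 to 0.080) and CT15 (-0.0021 to 0.43) and Nr4a1 at CT22 (-0.068 to 0.35) and averaged (-0.11 to 0.050). For U0126 with light they were Nr4a2 at CT15 (-0.10 to 0.044), Nr4a3 at CT22 (-0.40 to 0.0024) and Nr4a1 averaged (-0.063 to 0.16). For the interaction they were Nr4a1 at CT4 (-0.52 to 0.15) and averaged (-0.026 to 0.20), and for DMSO-Sham CT22 minus CT4 Nr4a1 (-0.15 to 0.27) and Nr4a3 (-0.10 to 0.061). Nr4a2 in DMSO-Light for CT22 minus CT4 ranged from -0.49 to -0.34 and also lost its call at 0.05 and after quantile or cyclic loess normalization. Nr4a2 from CT15 to CT22 in U0126-Sham (0.34, a fold under 1.3) passed without CT15 replicate 2 (0.49, adjusted p = 0.015), and Nr4a1 for CT22 minus CT4 passed without 1 array in DMSO-Light, U0126-Sham and U0126-Light (-1.09, 1.00 and 1.05). Nr4a1 from CT4 to CT15 over all treatments, -0.35 and not past the thresholds, passed without any 1 of 5 arrays (-0.44 to -0.27 over 24 arrays).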
